A study of Mus musculus with 24 samples.

Results

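The lipid droplet and lipolysis genes examined here are 10 genes, Plin2, Pnpla2, Abhd5, Lipe, Mgll, Lpl, Angptl4, Cd36, Dgat1 and Dgat2, that between them coat the droplet, break its fat down, bring fatty acids to the cell and make triglyceride. Their members on the arrays were every probe set annotated to one of these symbols, which gave 23 probe sets, 20 on array design MA and 3 on MB, of 45137 probe sets on both designs (10 of 18193 genes named there). RNA came from C2C12 cells, a mouse myoblast line that fuses into myotubes when serum is withdrawn. The 4 groups were DM at 5 mM glucose, DM at 25 mM glucose, GM at 5 mM glucose and GM at 25 mM glucose, with 3 cultures each and every culture on both designs, and the series asks how calorie restriction bears on myoblast differentiation. GM and DM are usually read as growth and differentiation medium in this line, but the labels give only the abbreviations and state no serum content, time or length of glucose exposure. Nothing states that the 3 cultures of a group were independent, so each p-value reflects only how far these samples spread, which may be technical.

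Cells store fatty acids as triglyceride in droplets bounded by a phospholipid layer and coated with perilipins. Stored triglyceride is taken apart in steps by a triglyceride lipase with its activator, then a diglyceride lipase, then a monoglyceride lipase, and the fatty acids released feed mitochondria, membranes and ligands of nuclear receptors. In muscle, droplets lie against mitochondria and serve as a local fuel, and fatty acids also arrive from lipoproteins through lipases at the cell surface.

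The arrays carried the label of the cells: of 10 muscle markers measured, 8 were higher in DM at each glucose level, and their summed intensity was 22990 to 38240 in DM at 5 mM and 26570 to 44620 in DM at 25 mM, against 2800 to 3328 in GM at 5 mM and 2925 to 3157 in GM at 25 mM. Of 9 adipocyte markers on the arrays 4 were bright enough to test, and their sum over all 9 was 277.7 to 428.0 in DM at 5 mM and 282.7 to 453.6 in DM at 25 mM, against 547.2 to 655.7 in GM at 5 mM and 667.0 to 697.7 in GM at 25 mM. The defining adipocyte gene Adipoq was too dim to test. It averaged 1.58 and 1.56 in DM at 5 and 25 mM, against 2.43 and 10.2 in GM at 5 and 25 mM. Its cultures in GM at 25 mM read 1.14 to 28.0. Of the 4 tested adipocyte markers Cebpa alone was called, lower in DM, and most of the gap in the sum came from it. Cebpa averaged 56.3 and 55.9 in DM at 5 and 25 mM, against 294.1 and 264.8 in GM. At 5 mM Pck1 went the other way, with 156.7 in DM and 116.6 in GM, as did Fabp4. Cebpa is described with the regulators below. Pparg, too dim to test, read 11.1 to 24.5 and 5.32 to 23.4 in DM at 5 and 25 mM. In GM it read 35.0 to 51.0 and 27.7 to 67.5 at 5 and 25 mM. Fabp4, also untested, averaged 31.6 and 23.8 in DM at 5 and 25 mM, against 19.9 and 49.0 in GM. Macrophage and blood markers, 4 of 7 tested, summed to 175.9 to 363.4 and 166.1 to 284.6 in DM at 5 and 25 mM, against 267.6 to 358.3 and 384.9 to 408.8 in GM at 5 and 25 mM. Of the macrophage and blood markers Cd14 was called, lower in DM by log2 changes of -1.05 at 5 mM (adjusted p = 0.00272) and -1.51 at 25 mM (adjusted p = 0.000128), so it moved with Plin2 and Angptl4. The part of these other cell markers in the results was not tested. A control probe for 18S ribosomal RNA split the cultures: 4 of them (DM at 5 mM replicate 2, DM at 25 mM replicate 3, GM at 5 mM replicates 1 and 2) read 23.0 to 48.2 on MA, against 278.6 to 1267 in the other 8, and GM at 25 mM held none of the low ones. The log2 ratio of the 3' to the 5' Actb control probe sets, a sign of RNA integrity, was 0.10 to 0.37 in DM at 5 mM and 0.12 to 0.18 in DM at 25 mM, against -0.05 to 0.38 in GM at 5 mM, then 0.34 to 0.55 in GM at 25 mM. It did not overlap between the media at 25 mM, and its part in the medium results was not tested. Values without the 4 low cultures are given below for Plin2 and for the called Mgll glucose change and interaction. For the Mgll, Lpl and Angptl4 changes between the media, and for genes outside the members, such values are not listed separately.

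Promoter sequences in the RefSeq table (GRCm38.p6) covered 6 of the 10 genes, in 8 entries, and 2 stretches are shown because they belong to the members with the clearest opposite changes, Mgll and Plin2. The Mgll stretch is the 250 bases before the upstream one of its 2 starts in the table, at chr6:88724162-88724411 on the plus strand, with CACGTG in capitals, an E-box form read by factors such as Myc. The Plin2 stretch is the 28 bases before the transcript start used in the table, at chr4:86670060-86670087 on the minus strand, which lies inside the RefSeq span of the gene given below, with CAGCTG in capitals, an E-box form read by MyoD-family factors.
Mgll: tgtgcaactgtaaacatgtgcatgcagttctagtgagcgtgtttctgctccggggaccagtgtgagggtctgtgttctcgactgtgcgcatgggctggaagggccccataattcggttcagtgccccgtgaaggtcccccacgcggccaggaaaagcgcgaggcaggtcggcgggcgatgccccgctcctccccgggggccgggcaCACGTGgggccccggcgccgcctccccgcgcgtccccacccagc
Plin2: agcggccccaggCAGCTGggctatcacg
The search took both strands of the 250 bases before each start. CACGTG lay 44 bases before that Mgll start and 155 bases before a Lipe start, and 6.02% of 32851 promoters in the table hold it. CAGCTG lay 16 bases before the table's Plin2 start, within the RefSeq span, and in no other member entry, and 13.0% of promoters hold it. The nuclear receptor half-site AGGTCA was found before Plin2, Cd36 and Abhd5, against 14.0% of promoters, and its spaced repeat AGGTCANAGGTCA, which contains the half-site, was in no member entry and in 0.0335% of promoters. No 2 of these matches overlapped. These matches describe letters and not binding.

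Between the media, the droplet coat gene Plin2 and the lipase inhibitor gene Angptl4 were lower in DM at both glucose levels, and the surface lipase gene Lpl was lower in DM at 25 mM. The monoglyceride lipase gene Mgll was higher in DM at both levels on all 3 of its tested probe sets. The other lipolysis genes, Pnpla2, Abhd5 and Lipe, and the synthesis enzymes showed no called change. The brighter 60 percent of probe sets on each design, by their mean over its 12 arrays, went into the test, and these included 15 of the 23 member probe sets, standing for 9 of the 10 genes. Values are array intensities as deposited, changes are differences of log2(intensity + 20) from limma, and a call is a Benjamini-Hochberg adjusted p under 0.05 over all probe sets of a design. At 25 mM glucose 3 member probe sets were called higher and 3 lower in DM, where 21.2% of all 27081 tested probe sets were called. At 5 mM 3 were higher and 2 lower in DM, where the share over all tested probe sets was 17.5%. The median change over the 15 was -0.07 at 25 mM and 0.22 at 5 mM, against -0.09 and -0.03 over all tested probe sets. At 25 mM the calls over all probe sets were 2637 higher and 3093 lower as deposited, and 3553 higher and 1872 lower once each array was centred on its median, which moved the median change of all probe sets to 0.07. The members' calls and their directions were the same under that centring.

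**Figure D1:**
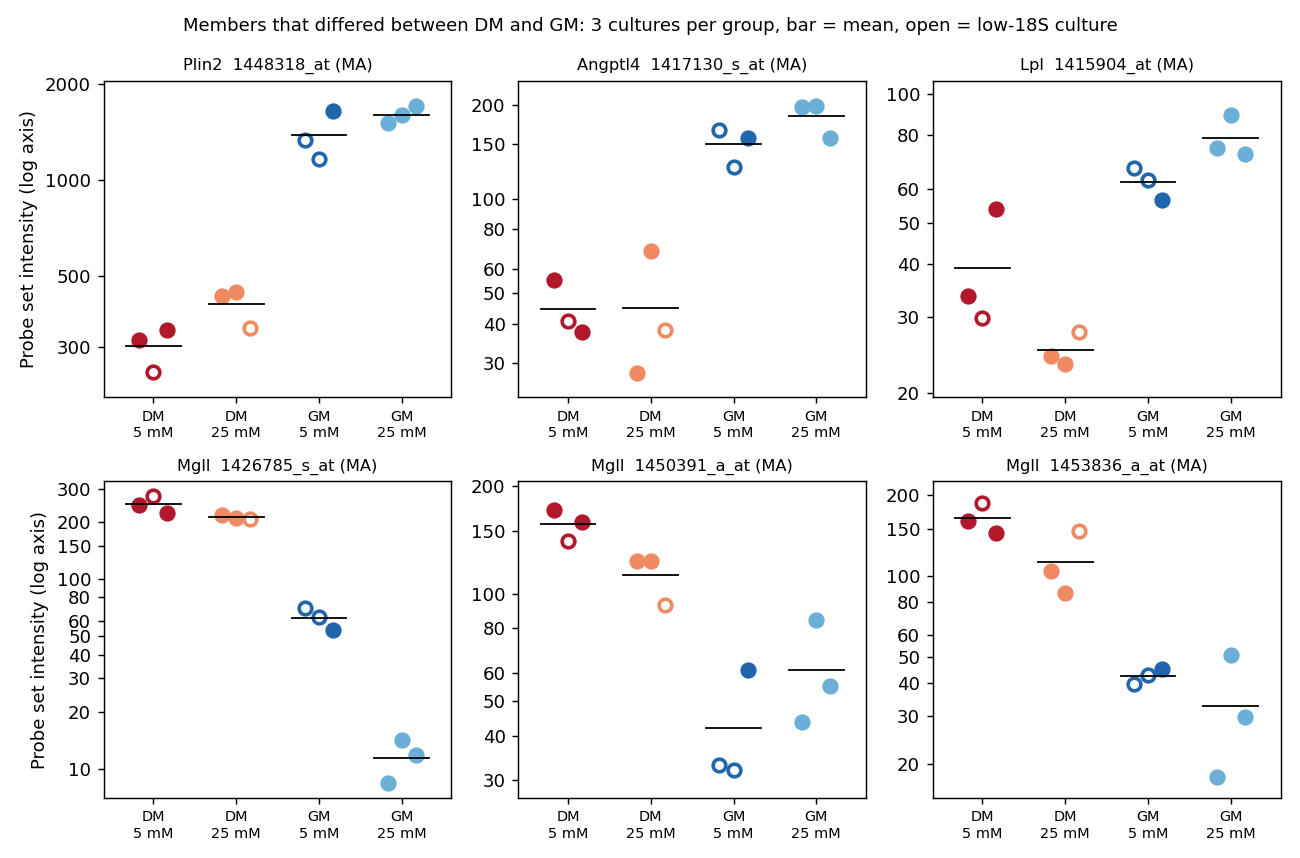
Intensity (log axis) of the 6 member probe sets called between DM and GM, in each of 3 cultures per group; bars are group means and open circles are the 4 cultures with low 18S control signal. Plin2, Angptl4 and Lpl lie lower in DM and the 3 Mgll probe sets lie higher, and Mgll 1426785_s_at alone also separates GM at 5 mM from GM at 25 mM by a wide gap.

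Plin2 encodes perilipin 2, the coat protein found on droplets of most cells outside fat tissue (chromosome 4, 86626910 to 86670217). Its probe set 1448318_at read 315.9, 251.2 and 339.9 in DM at 5 mM and 435.3, 446.1 and 346.1 in DM at 25 mM, against 1334, 1166 and 1642 in GM at 5 mM, then 1510, 1598 and 1700 in GM at 25 mM. Every DM culture lay below every GM culture, with no overlap at either glucose level. Plin2 fell by 2.12 on the log2 scale in DM at 5 mM (SE 0.15, adjusted p = 9.02e-08) and by 1.93 in DM at 25 mM (SE 0.15, adjusted p = 2.39e-07), which is 4.33-fold and 3.80-fold lower. Within the 8 cultures of high 18S signal the changes were -2.26 and -1.82, and among the low ones Plin2 read 251.2 in the DM culture, against 1334 and 1166 in the GM cultures at the same 5 mM. In bulk RNA, fewer cells that express a gene and less of its RNA per cell cannot be told apart.

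Mgll encodes monoacylglycerol lipase, which splits the last fatty acid from glycerol and also degrades the endocannabinoid arachidonoylglycerol (chromosome 6, 88724412 to 88828360). Probe set 1426785_s_at read 246.4, 272.5 and 224.2 in DM at 5 mM and 217.7, 210.9 and 207.0 in DM at 25 mM, against 70.2, 62.9 and 53.8 in GM at 5 mM, then 8.45, 14.2 and 11.8 in GM at 25 mM. Probe set 1450391_a_at read 172.1, 140.7 and 158.9 in DM at 5 mM and 123.4, 123.2 and 92.8 in DM at 25 mM, against 33.2, 32.2 and 61.0 in GM at 5 mM, then 43.6, 84.4 and 55.2 in GM at 25 mM. Probe set 1453836_a_at read 160.6, 187.1 and 144.8 in DM at 5 mM and 104.4, 86.3 and 146.9 in DM at 25 mM, against 39.5, 42.9 and 45.0 in GM at 5 mM, then 17.9, 50.6 and 29.9 in GM at 25 mM. On each of the 3 probe sets every DM culture was above every GM culture of the same glucose level. At 5 mM the 3 probe sets gave close sizes, with log2 changes of 1.70 (SE 0.16, adjusted p = 1.43e-06), 1.54 (SE 0.23, adjusted p = 0.000113) and 1.55 (SE 0.23, adjusted p = 0.000144) in the same order. At 25 mM they spread, with log2 changes of 2.89 (SE 0.16, adjusted p = 5.88e-09), 0.74 (SE 0.23, adjusted p = 0.0202) and 1.35 (SE 0.23, adjusted p = 0.000436). The first of these rests on the dim GM values at 25 mM, and was 4.12 with a pseudocount of 1 and 1.87 with 64, called in both. The smallest of these, of 1450391_a_at at 25 mM, lost its call without DM at 25 mM replicate 1 (adjusted p = 0.0649) or 2 (0.0652), or without GM at 25 mM replicate 1 (0.0869) or 3 (0.0589). The remaining probe set, 1431331_at, lay below the filter at 1.27 to 22.0 in all cultures.

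Lpl encodes lipoprotein lipase, which frees fatty acids from circulating triglyceride (chromosome 8, 68880555 to 68906932). Its tested probe set 1415904_at read 33.6, 29.8 and 53.7 in DM at 5 mM and 24.4, 23.4 and 27.8 in DM at 25 mM, against 67.0, 62.9 and 56.6 in GM at 5 mM, then 74.6, 89.4 and 72.2 in GM at 25 mM. All DM cultures lay below all GM cultures, and replicate 3 of DM at 5 mM came closest to them. Lpl fell by 1.13 on the log2 scale in DM at 25 mM (SE 0.20, adjusted p = 0.000496). Its DM values at 25 mM all lay below the MA filter intensity of 33.2. Over 23 alternative fits this change ran from -1.60 to -0.68 and was called in each. At 5 mM its log2 change was -0.50 (SE 0.20, adjusted p = 0.078), which was not called. Without DM at 5 mM replicate 3 it was -0.67 and called (adjusted p = 0.0282). Over its 23 alternative fits it ran from -0.70 to -0.28 and was called in 3. Whether the change differed between the glucose levels was tested by the interaction, 0.63 (SE 0.28, adjusted p = 0.394), which was not called.

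Angptl4 encodes a secreted inhibitor of lipoprotein lipase and is a known target of the PPAR receptors (chromosome 17, 33774900 to 33781575). Its tested probe set 1417130_s_at read 55.0, 40.8 and 37.8 in DM at 5 mM and 28.0, 68.2 and 38.4 in DM at 25 mM, against 166.2, 127.0 and 157.1 in GM at 5 mM, then 196.4, 198.4 and 157.1 in GM at 25 mM. The media did not overlap at either glucose level. Angptl4 fell by 1.40 on the log2 scale in DM at 5 mM (SE 0.22, adjusted p = 0.00022) and by 1.69 in DM at 25 mM (SE 0.22, adjusted p = 3.38e-05). The lipase gene and the gene of its inhibitor were both lower in DM at 25 mM.

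**Figure D2:**
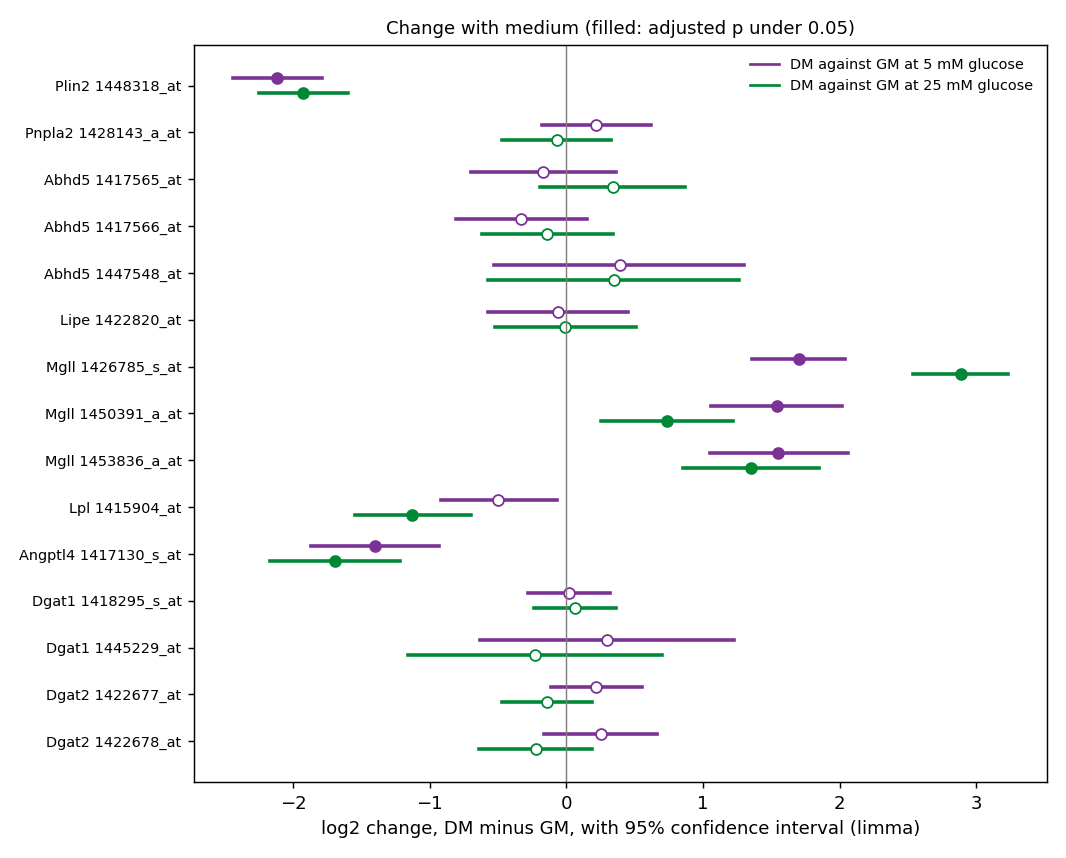
Change of the 15 tested member probe sets with medium, as the log2 difference DM minus GM with its 95% confidence interval, at 5 mM and 25 mM glucose; filled points had an adjusted p under 0.05. The Mgll probe sets lie right of 0, Plin2, Angptl4 and Lpl lie left of it, and the intervals of the other tested probe sets cross 0.

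None of the upstream lipolysis genes was called between the media. Pnpla2 encodes adipose triglyceride lipase, which starts the breakdown (chromosome 7, 141455188 to 141460743). Its probe set 1428143_a_at read 190.5 to 226.4 in DM at 5 mM and 125.6 to 224.6 in DM at 25 mM, against 150.4 to 202.1 in GM at 5 mM and 156.0 to 207.3 in GM at 25 mM. The groups overlapped, with log2 changes in DM of 0.22 at 5 mM (95% confidence interval -0.18 to 0.62) and -0.07 at 25 mM (-0.47 to 0.33). Intervals of this width leave room for changes of up to about 0.6 on the log2 scale.

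Abhd5 encodes the protein that activates that lipase (chromosome 9, 122351616 to 122381524). Its MA probe sets averaged 85.3 ± 20.5 and 49.5 ± 18.3 in DM at 5 mM and 98.3 ± 5.05 and 59.7 ± 3.96 in DM at 25 mM, against 99.2 ± 26.2 and 65.6 ± 7.84 in GM at 5 mM, then 76.8 ± 33.3 and 69.1 ± 19.3 in GM at 25 mM (1417565_at then 1417566_at, SD, n = 3 each). The first had log2 changes in DM of -0.17 at 5 mM and 0.34 at 25 mM, and the second -0.33 and -0.14, with no call. Its MB probe set 1447548_at had log2 changes of 0.39 and 0.35 with an SE of 0.44, and one low culture, DM at 25 mM replicate 3, read 53.3 where the other DM cultures read 106.2 to 160.6. Lipe encodes hormone-sensitive lipase, which acts mainly on diglyceride (chromosome 7, 25379527 to 25398486). Its MA probe set 1422820_at averaged 42.1 ± 7.19 in DM at 5 mM and 46.9 ± 11.9 in DM at 25 mM, against 44.8 ± 7.19 in GM at 5 mM and 48.5 ± 20.7 in GM at 25 mM (SD, n = 3 each). Its log2 changes in DM were -0.06 at 5 mM (95% confidence interval -0.57 to 0.45) and -0.01 at 25 mM (-0.52 to 0.51).

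Dgat1 and Dgat2 encode the 2 unrelated enzymes that join the last fatty acid to diglyceride (chromosome 15, 76502012 to 76512021, and chromosome 7, 99153663 to 99182713). Dgat1 on MA (1418295_s_at) averaged 257.0 ± 41.3 in DM at 5 mM and 297.0 ± 22.4 in DM at 25 mM, against 251.8 ± 31.0 in GM at 5 mM and 283.4 ± 23.5 in GM at 25 mM (SD, n = 3 each). It had narrow intervals around 0, with log2 changes of 0.02 at 5 mM (-0.28 to 0.32) and 0.06 at 25 mM (-0.24 to 0.36). Its MB probe set 1445229_at was wide, from 43.3 to 208.2 over the 12 cultures, with an SE of 0.44. Dgat2 (1422677_at) averaged 123.2 ± 15.8 in DM at 5 mM and 112.5 ± 17.2 in DM at 25 mM, against 102.5 ± 3.57 in GM at 5 mM and 125.3 ± 8.55 in GM at 25 mM (SD, n = 3 each). Both Dgat2 probe sets had a positive log2 change in DM at 5 mM, 0.22 and 0.25, and a negative one at 25 mM, -0.14 and -0.22, with no call in either medium comparison or in the interaction (0.36 and 0.47, adjusted p = 0.52 and 0.5). On both, the media did not overlap at 5 mM, and neither did the glucose levels in GM, though neither difference was called. The share of all probe sets without overlap was not counted.

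**Figure D3:**
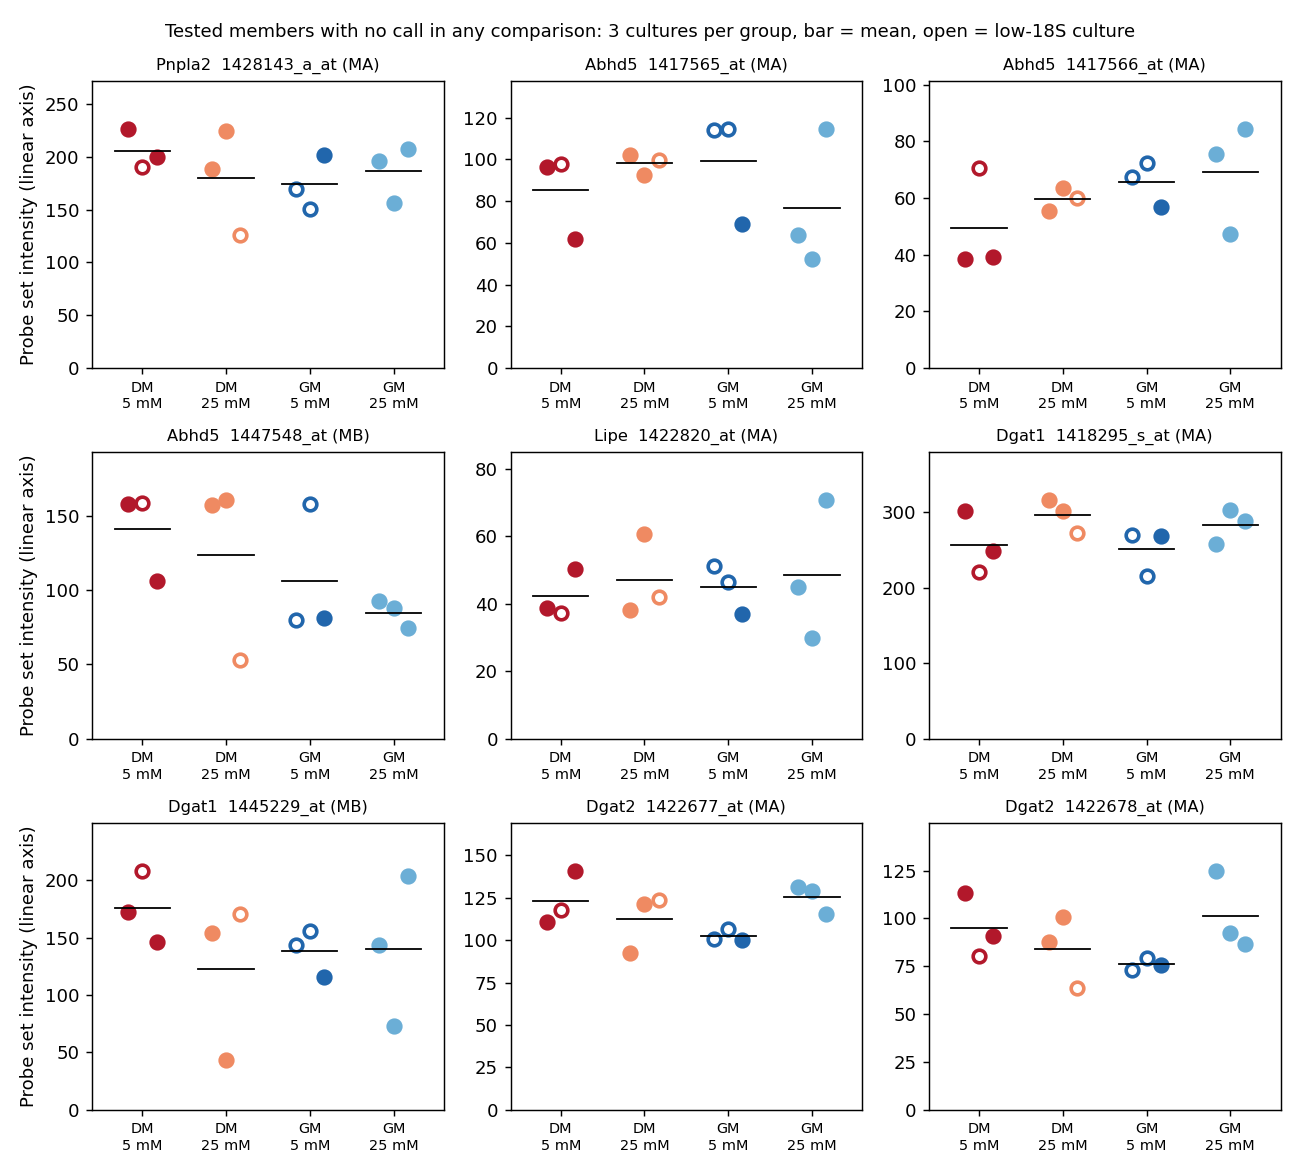
Intensity (linear axis from 0) of the 9 tested member probe sets with no call in any comparison, in each of 3 cultures per group; bars are group means and open circles are the 4 cultures with low 18S control signal. DM and GM overlap in most panels, and the MB probe sets of Abhd5 and Dgat1 are the most scattered.

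Cd36, the gene of a membrane protein that takes up fatty acids, was dim in these cells (chromosome 5, 17781690 to 17888959). Its 3 probe sets read 0.28 to 24.95 over all cultures, below the filter, which stood at 33.2 on MA. The 8 untested probe sets were these 3 and 1 each of Pnpla2, Lipe, Mgll, Lpl and Angptl4, genes that also have a brighter one. Fitted without the filter, none of the 8 was called in any comparison.

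Between the glucose levels in GM, Mgll 1426785_s_at was higher at 5 mM and was the only tested probe set of the whole series to be called. It averaged 62.3 ± 8.22 in GM at 5 mM and 11.5 ± 2.87 in GM at 25 mM (SD, n = 3 each), with no overlap and a log2 change of 1.39 (SE 0.16, adjusted p = 0.00615). This is 1 of 15 member probe sets, and 0.00369% of all tested probe sets. The filter took the mean over all 12 arrays, so the brighter DM values helped this probe set to pass it. Fitted without the filter, the probe set was also called (limma adjusted p = 0.0149). The size depends on the pseudocount because the GM values at 25 mM lie far below 33.2: the log2 change was 2.36 with a pseudocount of 1 and 0.74 with 64, where the call was lost (adjusted p = 0.137). The other Mgll probe sets did not show it. Probe set 1450391_a_at averaged 42.1 ± 16.4 in GM at 5 mM and 61.1 ± 21.0 in GM at 25 mM, a log2 change of -0.38 (SE 0.23, adjusted p = 0.513), and 1453836_a_at averaged 42.5 ± 2.76 in GM at 5 mM and 32.8 ± 16.5 in GM at 25 mM, a change of 0.29 (SE 0.23, adjusted p = 0.618). The log2 difference of 1426785_s_at from 1450391_a_at was 0.43 ± 0.49 in GM at 5 mM and -1.34 ± 0.24 in GM at 25 mM, and its difference from 1453836_a_at was 0.39 ± 0.21 at 5 mM and -0.70 ± 0.32 at 25 mM (SD, n = 3 each). Neither pair of groups overlapped. These differences were examined after they were seen, with 1426785_s_at dim in GM at 25 mM, and the exact permutation test (p = 0.1 for both, two-sided) cannot pass 0.05 with 3 cultures against 3.

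The call in GM also rested on particular cultures. It was lost without GM at 5 mM replicate 1 (log2 change 1.32, adjusted p = 0.0888) or replicate 2 (1.38, adjusted p = 0.0668), both of them low in 18S. Within the high 18S cultures, which leave 1 culture in GM at 5 mM, the change was 1.23 (adjusted p = 0.44), and with the split as a block it was 1.30 (adjusted p = 0.017). The Actb 3' to 5' ratio overlapped between these groups, and its part in the result was not tested.

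Between the glucose levels in DM, 0 of the 15 member probe sets were called by limma, where 0.853% of all tested probe sets were, and 1, Plin2, had an unadjusted p under 0.05. Plin2 averaged 302.3 ± 45.9 in DM at 5 mM and 409.1 ± 54.9 in DM at 25 mM (SD, n = 3 each), without overlap and with a log2 change of -0.41 (SE 0.15, adjusted p = 0.29). The culture with low 18S was the lowest of each group. With the 18S split as a block Plin2 was called (log2 change -0.41, adjusted p = 0.0134), and within the high 18S cultures it was not (-0.41, adjusted p = 0.172). The 3 Mgll probe sets had changes of 0.20, 0.42 and 0.49, none called. Mgll 1426785_s_at, Mgll 1450391_a_at and the tested Lpl probe set also lacked overlap between the glucose levels in DM. How many of all tested probe sets lacked it was not counted. Lpl was 39.1 ± 12.8 in DM at 5 mM and 25.2 ± 2.30 in DM at 25 mM, with a log2 change of 0.37 (adjusted p = 0.592).

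The interaction, which subtracts the glucose effect in GM from that in DM, was called for 1 member probe set, Mgll 1426785_s_at, and for 0.277% of all tested probe sets. Its value was -1.18 (SE 0.23, adjusted p = 0.0318), which sets the change of 0.20 in DM against 1.39 in GM. It was -2.14 with a pseudocount of 1, where it was called, and -0.57 with 64, where the call was lost (adjusted p = 0.161). Within the high 18S cultures it was -1.11 and not called (adjusted p = 0.406), and with the split as a block it was -1.10 (adjusted p = 0.0247). It carries the limits of the GM change, since 1450391_a_at gave 0.80 (adjusted p = 0.348) and 1453836_a_at gave 0.20 (adjusted p = 0.813). The call was lost when any of 9 of the 12 cultures was left out, and it remained without DM at 5 mM replicate 2, GM at 25 mM replicate 2 or GM at 5 mM replicate 3.

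**Figure D4:**
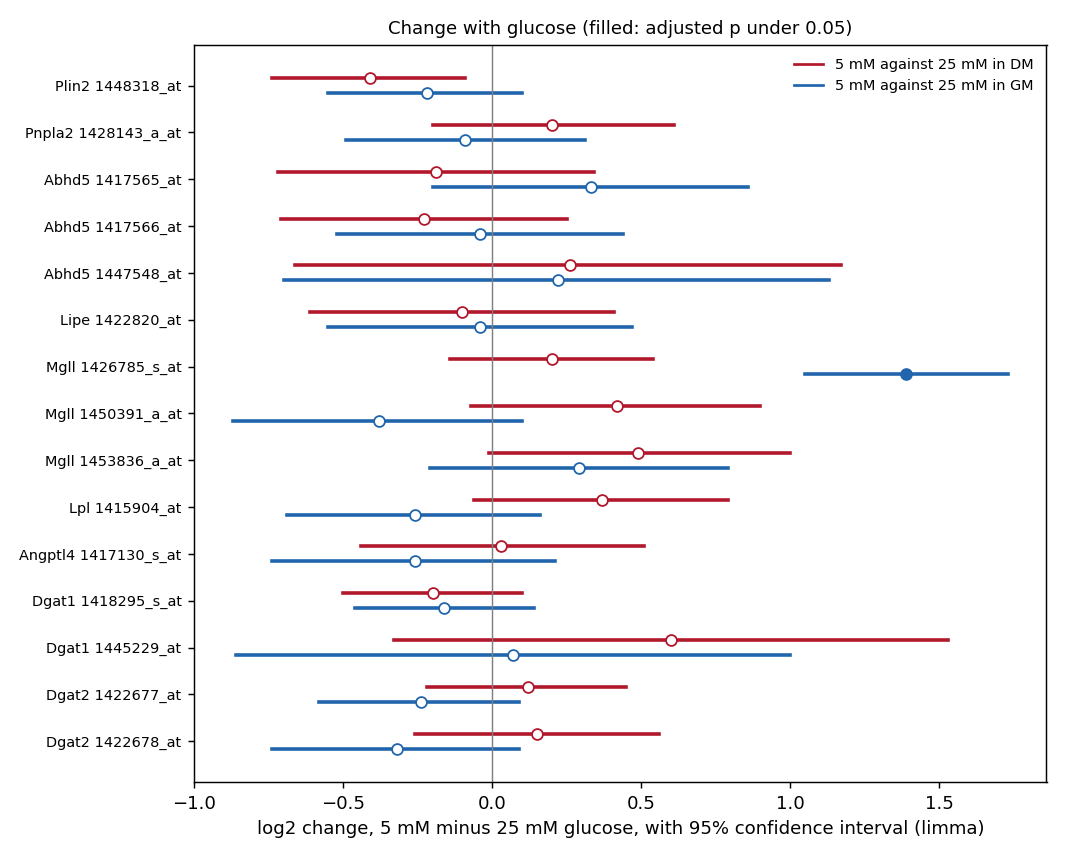
Change of the 15 tested member probe sets with glucose, as the log2 difference 5 mM minus 25 mM with its 95% confidence interval, in DM and in GM; the filled point had an adjusted p under 0.05. Mgll 1426785_s_at in GM, at 1.39, stands apart from the other 2 Mgll probe sets, at -0.38 and 0.29.

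Other genes of the pathway were counted from 8 lists. Each gene was taken by its brightest tested probe set on MA, or on MB where MA had no tested one. This gave 105 measured genes that are not members. In DM 19 of them were higher and 27 lower at 25 mM glucose, and 16 were higher and 22 lower at 5 mM. Over all tested probe sets, which were not picked by brightness within a gene, 21.2% were called at 25 mM and 17.5% at 5 mM, so the list counts, taken per gene, are not on the same footing. In GM none was called with glucose by limma, although 7 had an unadjusted p under 0.05. In DM 1 was called, Lipa, where 0.853% of all tested probe sets were, and 13 had an unadjusted p under 0.05.

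Fatty acid uptake and activation showed the most calls for its size, with 4 higher and 6 lower of 12 measured genes at 25 mM (median -0.40) and 4 higher and 5 lower at 5 mM (median -0.36). Fabp3, the fatty acid binding protein of heart and muscle, averaged 284.0 ± 9.94 in DM and 31.0 ± 3.87 in GM at 25 mM, and rose by 2.58 on the log2 scale at 25 mM (SE 0.21, adjusted p = 2.8e-07) and 2.41 at 5 mM (SE 0.21, adjusted p = 5.82e-07). Pairs of changes without a glucose level are those at 25 mM and then at 5 mM. Acsl5, an acyl-CoA synthetase, fell by 1.95 and 1.54 (adjusted p = 3.38e-08 and 3.87e-07), and Lrp1, a lipoprotein receptor, fell by 1.70 and 1.84 (adjusted p = 2e-07 and 8.81e-08). The synthetases thus did not move one way, as Acsl3, called at both glucose levels, rose by 1.53 and 1.06 (adjusted p = 1.57e-05 and 0.00101).

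Glycerolipid synthesis had 4 higher and 1 lower of 15 at 25 mM (median 0.21) and 3 higher and 1 lower at 5 mM (median 0.27). Agpat3 and Agpat5, which add the second fatty acid, rose by 1.10 and 1.25 at 25 mM (adjusted p = 7.46e-06 and 0.000261), and by 1.16 and 0.66 at 5 mM (adjusted p = 5.15e-06 and 0.0244). The lipid phosphate phosphatase genes split, with Plpp1 higher by 1.12 and 1.15 (adjusted p = 2.81e-05 and 2.54e-05) and Plpp2 at -1.23 and -1.12 (adjusted p = 1.66e-06 and 4.62e-06).

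Of the droplet coat and biogenesis genes, 2 were higher and 2 lower of 13 at 25 mM (median -0.25), and 2 higher and 1 lower at 5 mM (median 0.04). Fitm2, an endoplasmic reticulum protein needed for droplets to form, rose by 1.05 at 25 mM (adjusted p = 0.00696) and 1.70 at 5 mM (adjusted p = 6.8e-05). Hsd17b11, a droplet-bound dehydrogenase, fell by 1.31 and 0.92 (adjusted p = 3.06e-06 and 0.000102), and Plin3, a perilipin like Plin2, fell by 0.88 at 25 mM (adjusted p = 0.00144).

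Among other lipases and their partners, 1 was higher and 3 lower of 13 at 25 mM (median -0.32) and 1 was higher at 5 mM (median 0.01). Lmf1, which folds Lpl in the endoplasmic reticulum, rose by 0.64 at 25 mM (adjusted p = 0.0285) and 1.10 at 5 mM (adjusted p = 0.00115), while Lpl itself was lower in DM at 25 mM. Lipg, endothelial lipase, fell by 1.15 at 25 mM (adjusted p = 0.00159). Lipa, the acid lipase of lysosomes, averaged 207.3 ± 21.2 in DM at 5 mM and 127.6 ± 8.46 in DM at 25 mM, against 238.6 ± 22.4 in GM at 5 mM and 229.9 ± 33.5 in GM at 25 mM (SD, n = 3 each). It was higher at 5 mM than at 25 mM in DM by 0.62 (SE 0.14, adjusted p = 0.0398), and its interaction of 0.57 was not called (adjusted p = 0.286).

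The signalling genes that set lipolysis through cyclic AMP had 2 higher and 4 lower of 14 at 25 mM (median -0.09) and 2 higher and 2 lower at 5 mM (median -0.19). The cyclase gene Adcy6 fell by 1.56 and 1.21 (adjusted p = 8.29e-06 and 0.000106), and Pde3b, a phosphodiesterase through which insulin restrains lipolysis in fat cells, fell by 1.39 and 1.27 (adjusted p = 0.000585 and 0.00152). Akap1, an anchor for protein kinase A at mitochondria, rose by 1.30 and 1.07 (adjusted p = 6.64e-05 and 0.000404). Endocannabinoid turnover, the other use of Mgll, had 1 lower of 7 at 25 mM (median -0.37) and 3 lower at 5 mM (median 0.01). Naaa, an acid amidase of the related ethanolamides, fell by 0.86 and 1.39 (adjusted p = 0.00987 and 0.000335), and Dagla, which makes the monoglyceride that Mgll degrades, fell by 1.21 at 5 mM (adjusted p = 0.0171).

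The PPAR, CEBP and related regulators had 4 higher and 3 lower of 13 at each glucose level, with medians of 0.06 at 25 mM and 0.30 at 5 mM. Cebpa, a factor of fat cell differentiation, averaged 56.3 ± 12.3 in DM and 294.1 ± 43.8 in GM at 5 mM and fell by 2.04 (SE 0.20, adjusted p = 2.75e-06), and by 1.91 at 25 mM (SE 0.20, adjusted p = 4.77e-06). Cebpb fell by 1.25 at 5 mM (adjusted p = 8.21e-05), and Ncoa1, a nuclear receptor coactivator, rose by 1.87 at 25 mM (adjusted p = 2.99e-06) and was called higher at 5 mM too (adjusted p = 2.85e-05). Fatty acid use in mitochondria and peroxisomes had 2 higher and 7 lower of 18 at 25 mM (median -0.21), and 7 lower at 5 mM (median -0.25). Pdk4, the kinase that shuts off pyruvate dehydrogenase, fell by 1.70 at 25 mM and 2.04 at 5 mM (adjusted p = 4.75e-06 and 8.58e-07). Cpt1a, which admits long-chain fatty acids to mitochondria, fell by 1.36 at 25 mM and fell by 1.81 at 5 mM (adjusted p = 4.66e-06 and 2.66e-07), and Acadm, a dehydrogenase of medium-chain fatty acids, fell by 1.38 at each level (adjusted p = 8.21e-07 and 8.46e-07).

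**Figure D5:**
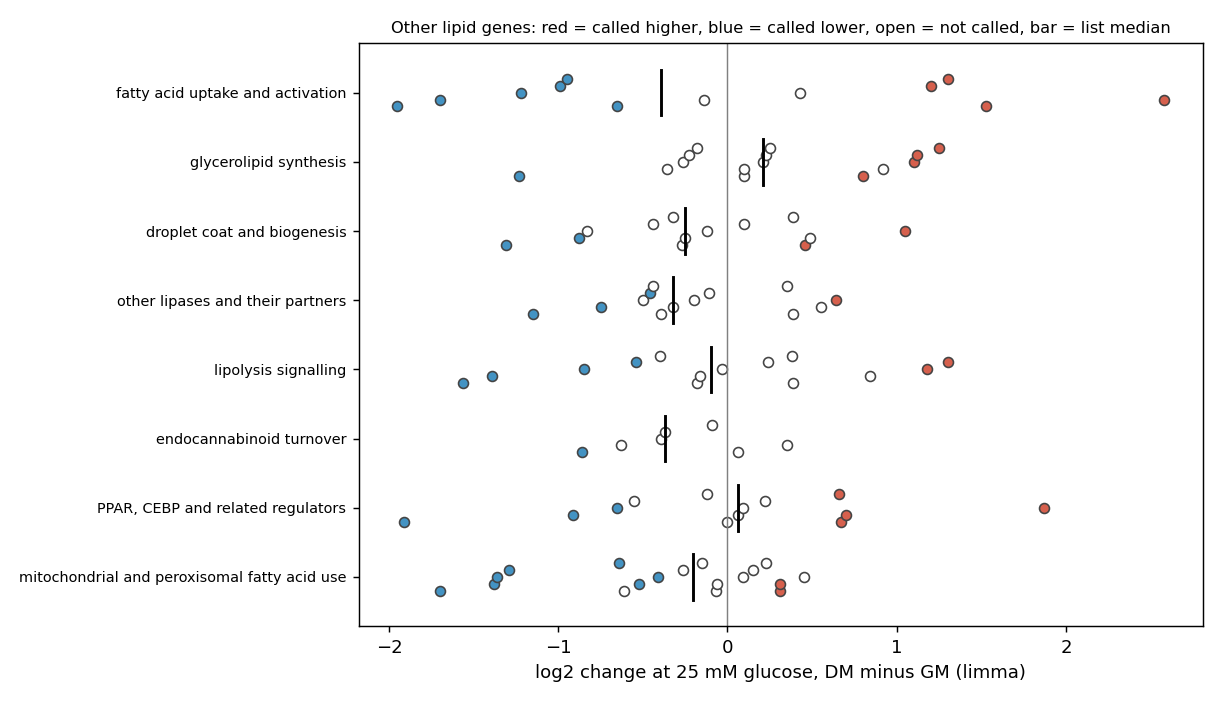
Log2 change, DM minus GM at 25 mM glucose, of the 105 measured genes in 8 lipid lists; filled points were called higher or lower, open points were not called, and bars are list medians. Called genes lie on both sides of 0 in 7 lists, and the endocannabinoid list has 1 call, lower.

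By Pearson correlation of log2(intensity + 20) over the 12 MA arrays, the genes most like Mgll 1426785_s_at were Trim13 (r = 0.979), Cirbp (r = 0.979) and Stard7 (r = 0.974). Stard7, a carrier of phosphatidylcholine, averaged 959.8 ± 121.3 and 863.9 ± 90.2 in DM at 5 and 25 mM, against 380.5 ± 40.8 and 274.9 ± 26.4 in GM at 5 and 25 mM. The genes most like Plin2 were Nfkbia (r = 0.997), Selenoh (r = 0.993) and Stmn1 (r = 0.993). Nfkbia, the inhibitor of NF-kappa-B, averaged 101.1 ± 14.3 and 126.1 ± 7.66 in DM at 5 and 25 mM, against 311.9 ± 38.1 and 337.0 ± 29.2 in GM at 5 and 25 mM (SD, n = 3 each). These r describe 12 arrays whose values fall mainly into the media, and the arrays share the medium groups and the 18S split.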

How the data were processed

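The files hold microarray intensity values that the authors deposited, 1 per probe set and array, on a linear scale; how they made them from the scans is not given in the sources used here. Their mean after trimming 2 percent at each end was 150.0 to 150.1 on every array, so the arrays were used as deposited, on log2(intensity + 20). Medians were 48.7 to 61.2 (MA) and 69.0 to 96.5 (MB). Precision is set by how many arrays there are. Control probe sets (64 per design) were left out. Genes were named from the platform annotation, and positions and promoters are RefSeq's for GRCm38.p6. Probe sets above the 40th percentile of mean log2 value were tested (13575 on MA, 13506 on MB; intensity 33.2 and 54.1). Each design was fitted over 12 arrays with 4 group means in limma 3.58.1 (R 4.3.3), eBayes with a trend, two-sided, with Benjamini-Hochberg adjustment within a design; 8 residual and 6.22 (MA) or 10.1 (MB) prior degrees of freedom. The fit was tested on simulated data. All probe sets of the 10 members were described. From each list up to 3 called genes with the largest change per comparison could be named. Acsl3, Acsl4 and Acsl6 were named after their values were seen. For Mgll and Plin2 the 3 best correlated genes were named. Members, lists and tests were chosen with earlier results of these data known. Alternatives were other pseudocounts (1, 64), filters, normalizations, moderation, array weights, the arrays fitted, a replicate block, the 18S split and leaving out each culture.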

Additional observations from a re-analysis of the deposited data

Results flagged for a closer look

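The interaction of Mgll 1426785_s_at, a log2 value of -1.18, came up because a test of the difference itself found unlike glucose changes in the 2 media (0.20 in DM, 1.39 in GM, limma adjusted p = 0.0318). The other 2 tested Mgll probe sets gave 0.80 and 0.20 and were not called. Over the 23 alternatives that could give a value the value ran between -2.14 and -0.57 and the adjusted p between 0.00465 and 0.406.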

How the results depend on the processing

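Of 13 called results for single member probe sets, 10 were called under every alternative that could give a value, 23 or 24 each, and none of the 13 changed sign. Of 62 not called, 2 were called in some alternative and 25 changed sign in some. The counts of called members were 3 in each medium comparison under the 60th percentile filter, which kept 10 of the 15 member probe sets. The GM glucose count was 0 with a pseudocount of 64, with only the arrays compared and within the high 18S cultures, and 0 to 1 over the single cultures left out. Its adjusted p for Mgll 1426785_s_at ran from 0.000287 to 0.44. The DM glucose count was 1 with the 18S split as a block. The interaction count was 0 with a pseudocount of 64, without the filter (adjusted p = 0.0581), with the replicate block and within the high 18S cultures, and 0 to 1 over the single cultures left out. The causes were not tested. Lpl at 5 mM was called without the trend (adjusted p = 0.0355), with array weights (0.0221) and without DM at 5 mM replicate 3. It was not called in the rest of its 23 alternatives. The labels do not say whether same-numbered cultures were paired. Correlations of same-numbered cultures' deviations were -0.563 to 0.521 on MA, over 0.1 in 3 of 18 pairs, and -0.211 to 0.236 on MB, over 0.1 in 2 of 18. For cultures of unlike number they were -0.582 to 0.719 on MA, over 0.1 in 10 of 36 pairs. On MB those were -0.285 to 0.239, over 0.1 in 6 of 36. With the replicate block the interaction of Mgll had an adjusted p of 0.0809 and its GM change one of 0.0377, and the block changed no other member call. Signal near background limits all Cd36 values, the Mgll level in GM at 25 mM and the Lpl level in DM at 25 mM.
Over all probe sets, GM glucose calls were 815 with array weights and 0 to 1 in the other 11 settings that left out no single culture, beside 1 in the fit reported. DM glucose calls were 607 with the 18S block and 109 with only the arrays compared, beside 231. Interaction calls were 333 with array weights, 130 with the 18S block, 41 without the trend, 30 with the replicate block and 17 within the high 18S cultures, beside 75. Over the single cultures left out, calls were 0 to 5 for glucose in GM, 131 to 243 for glucose in DM and 26 to 104 for the interaction. DM against GM calls at 5 mM were 2789 within the high 18S cultures, beside 4728. Centring on the median moved the median change of all probe sets to 0.129 in the GM glucose comparison and to -0.151 in the interaction.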

Other observations

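A Lipe probe set on MB, 1432180_at, which lay below the filter, read 5.96, 2.35 and 125.1 in DM at 5 mM and 3.71, 138.3 and 3.01 in DM at 25 mM, against 2.10, 10.6 and 5.16 in GM at 5 mM, then 59.3, 147.1 and 51.8 in GM at 25 mM. The glucose levels did not overlap in GM, where its log2 change at 5 mM, fitted without the filter, was -1.94 (limma adjusted p = 0.68). Fitted without the filter it had an SE of 0.72 in each comparison of 2 groups and no call. Untested probe sets of Lpl (1431056_a_at) and Angptl4 (1453410_at) read 7.94 to 10.8 and 1.18 to 2.52 in DM at 5 mM, and 11.5 to 23.3 and 6.03 to 17.6 in DM at 25 mM, without overlap between the glucose levels. Fitted without the filter, their log2 changes at 5 mM in DM were -0.34 and -0.49, with limma adjusted p-values of 0.897 and 0.635. In GM, where the glucose levels overlapped, these changes were larger, -0.84 and -0.77 (limma adjusted p = 0.369 for both). The tested probe sets of Lpl and Angptl4 had changes of 0.37 and 0.03 in DM, neither called. These untested readings in DM all lay below 33.2, and how many of all probe sets lacked overlap was not counted.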
